A study of Mus musculus with 6 samples.

Results

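The 10 genes Phgdh, Psat1, Psph, Shmt1, Shmt2, Mthfd2, Mthfd1l, Aldh18a1, Pycr1 and Gpt2 encode enzymes that make serine, move its carbon into folate, make proline or make alanine, and were taken by symbol from a table of 24421 genes. RNA sequencing measured them in prostates from 2 intact and 4 castrated mouse samples. All 6 samples, the controls included, carry PB-Cre4 and the same homozygous LoxP-flanked allele. Cre recombinase, driven by a probasin promoter that is active in prostate epithelium and responds to androgen, deletes that allele there, while other cell types of the gland keep it. The 4 castrated samples differ from the 2 intact ones in castration alone, as far as the labels say. The labels give no age, strain or time since castration, and do not say whether each sample is 1 animal, and a p-value therefore reflects variation among these samples that could be technical. Every sample has the same genotype, so no level of the deleted gene can check the labels.

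Serine is made from a glycolytic intermediate in a chain of steps that Phgdh starts, Psat1 continues and Psph ends. Serine hydroxymethyltransferases, Shmt1 in the cytosol and Shmt2 in mitochondria, then split serine into glycine and a carbon unit carried by folate. In mitochondria that unit is oxidised by Mthfd2 and released as formate by Mthfd1l, and formate serves the making of purines and thymidylate in the cytosol. Aldh18a1 and Pycr1 turn glutamate into proline in mitochondria, and Gpt2 is a mitochondrial transaminase that makes alanine from pyruvate, so the last is not a serine, folate or proline enzyme. Many of these genes are known targets of Atf4, the transcription factor of the amino acid response, which mTOR signalling is known to raise.

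Reads in genes numbered 43679297 to 59170793 per sample. Levels are given as rescaled CPM, which is reads per 1000000 reads in genes divided by a size factor for the sample (0.978 to 1.05). Across genes, castrated sample 4 correlated at 0.941 with castrated sample 1, 0.954 with castrated sample 3 and 0.970 with castrated sample 2, and at 0.950 and 0.952 with the intact samples, while castrated samples 1, 2 and 3 correlated at 0.969 to 0.988 with each other. It was thus farther from castrated samples 1 and 3 than from castrated sample 2. Without castrated sample 4 Mthfd2 was 3.45-fold and Phgdh 2.20-fold lower in castrated samples, and both were called (limma adjusted p = 0.00476 and 0.00857). In that fit 1052 of 13786 tested genes were called, against 274 of 13898 with all samples. Phgdh lost its call when any other single sample was left out, and Mthfd2 when either intact sample was. Of the marker genes of the tissue, 10 luminal prostate genes summed to 6155 to 6460 rescaled CPM in intact and 4657 to 6846 in castrated samples, 10 epithelial genes to 11126 to 11288 and 7605 to 11268, and 8 seminal vesicle genes to at most 0.161 in any sample. In bulk tissue, fewer cells of a type and less RNA per cell cannot be told apart. Reads behind single values ranged from 429 to 8439 for 9 of the genes and from 100 to 171 for Pycr1, the least abundant.

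In castrated prostates Mthfd2 fell 3.31-fold and Phgdh 2.43-fold, while the other 8 enzyme genes did not pass the test in limma (Benjamini-Hochberg adjusted p under 0.05 over 13898 tested genes). Mthfd2 and Phgdh are thus 2 of 10 genes called lower, where 1.97% of all tested genes were called, 1.27% lower and 0.698% higher. All 10 passed the filter on low values. The log2 difference, castrated minus intact, was negative for 9 genes and positive for Gpt2 (Mthfd1l turned positive without size factors), with a median of -0.16 against 0.00 over all tested genes. The groups did not overlap for Mthfd2, Phgdh and Shmt2, each lower in castrated samples, where 26.6% of all tested genes showed such separation, 13.2% in that direction and 13.4% in the other. The same 2 genes were called in edgeR, which called 1.46% of tested genes (1.07% lower, 0.389% higher), and in DESeq2, which called 9.3% (4.54% lower, 4.76% higher).

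**Figure D1:**
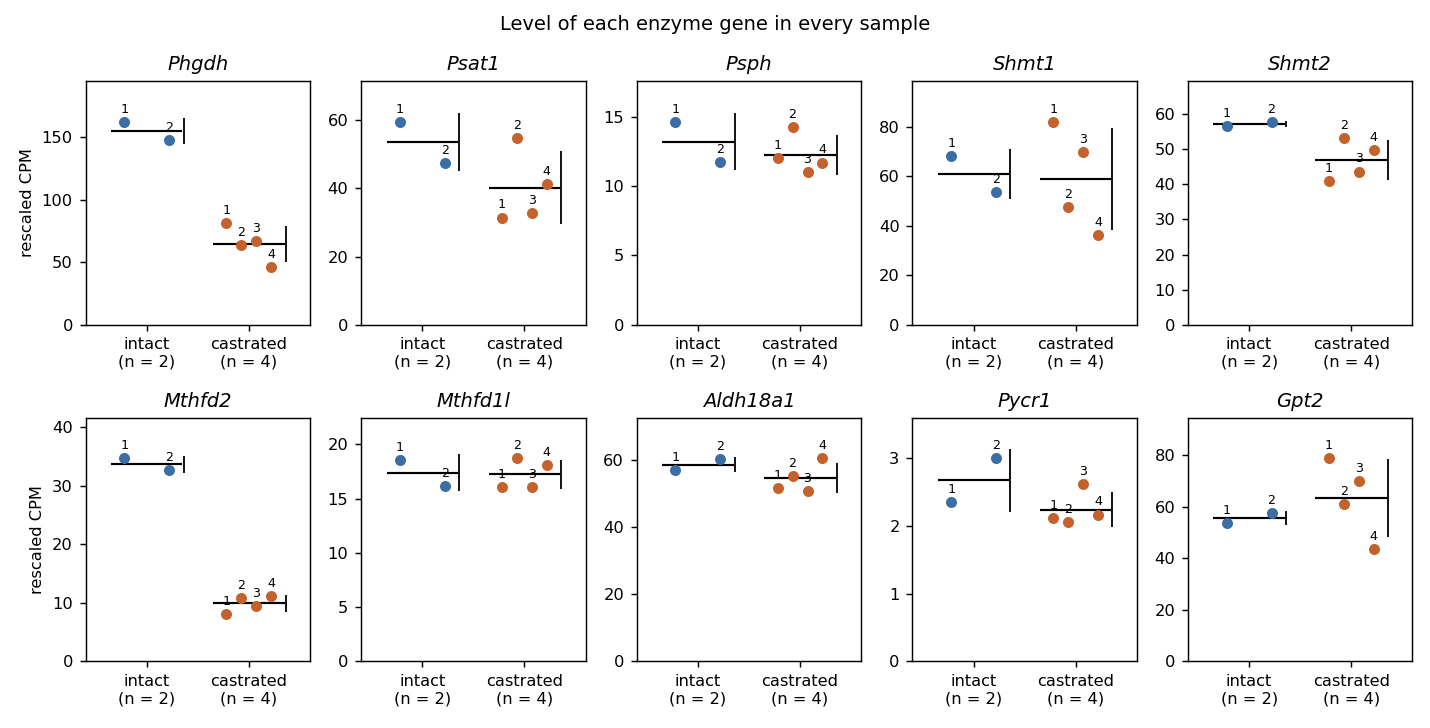
Level of each of the 10 enzyme genes (rescaled CPM, y axis from 0) in the 2 intact (blue) and 4 castrated (orange) samples, numbered by sample; horizontal lines are group means and vertical lines 1 SD either side. Mthfd2 lies at 32.7 and 34.7 in intact and at 8.16 to 11.2 in castrated samples, and Phgdh at 148 and 163 against 46.4 to 81.7.

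Mthfd2, the mitochondrial dehydrogenase and cyclohydrolase of folate carbon (chromosome 6, 83305691 to 83325908 in GRCm38, minus strand), had the largest difference of the 10. Intact samples 1 and 2 held 34.7 and 32.7 rescaled CPM of it, and castrated samples 1 to 4 held 8.16, 10.9, 9.44 and 11.2. The highest castrated sample therefore lay far below the lowest intact one, and the castrated samples kept close together. The means were 33.7 ± 1.43 (SD, n = 2) and 9.91 ± 1.39 (n = 4), a log2 difference of -1.73 with a standard error of 0.16 and a 95% interval of -2.11 to -1.34 (limma adjusted p = 0.00927). No other annotated gene overlaps its exons, and no other transcript matched its own at 90% identity over 100 bases. Without castrated sample 1, 2, 3 or 4 the call held, at adjusted p from 0.00476 to 0.0450. Without intact sample 1 or 2 it was lost, at adjusted p of 0.126 and 0.109, while the fall stayed at 3.22-fold and 3.41-fold.

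Phgdh, the dehydrogenase that commits carbon to serine (chromosome 3, 98313170 to 98339990, minus strand), was the most abundant of the 10 genes per length of exon. It stood at 163 and 148 rescaled CPM in the intact samples and at 81.7, 64.0, 66.7 and 46.4 across castrated samples 1 to 4. Castrated samples all lay below the intact ones, with castrated sample 1 the highest and castrated sample 4 the lowest of them. The means were 155 ± 10.6 (SD, n = 2) and 64.7 ± 14.4 (n = 4), a log2 difference of -1.28 with a standard error of 0.21 and an interval of -1.79 to -0.77 (limma adjusted p = 0.0415). This call was closer to the threshold. It was lost without intact sample 1 or 2, at adjusted p of 0.284 and 0.235, and on omitting castrated sample 1, 2 or 3, at 0.0533, 0.113 and 0.115, and the fall ranged from 2.20-fold to 2.65-fold over the 6 omissions of a single sample. Phgdh has near-identical copies in the genome: 21 other annotated genes, pseudogenes among them, matched its transcript at 90% identity or more over at least 100 bases, the closest at 98.7%, and together they covered 96.7% of it. Its reads are therefore uncertain to the extent that the authors' counting assigned or dropped reads from these copies. Of the copies, 3 are in the deposited table by symbol, and none exceeded 2.98 CPM in any sample. By the same search, matches to other genes covered 41.6% of the Gpt2 transcript and 40.0% of that of Psat1. They covered 26.1% for Psph, 10.2% for Shmt2, 6.44% for Shmt1 and 4.60% for Pycr1. Reads of Gpt2, Psat1, Shmt2 and Pycr1 carry the same kind of uncertainty. For Psph and Shmt1 the only match was an antisense gene at the same locus, Cct6a and Smcr8, so the doubt there concerns the strand.

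**Figure D2:**
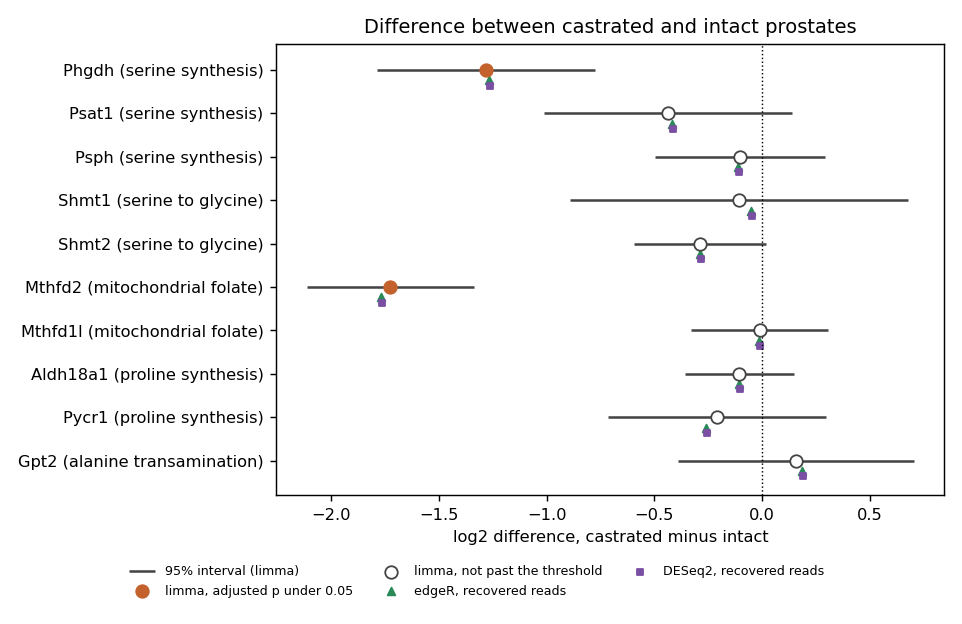
Log2 difference between castrated and intact samples for each enzyme gene (x axis), with its role; circles are limma estimates with 95% intervals, triangles edgeR and squares DESeq2 on the recovered reads. The intervals of Mthfd2 (-2.11 to -1.34) and Phgdh (-1.79 to -0.77) lie wholly below 0, and those of the other 8 genes include 0.

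The sequences before the start sites of Mthfd2 and Phgdh are shown because these are the genes that fell. They are the 250 bases upstream of the RefSeq start in GRCm38.p6, 5′ to 3′ on the gene's strand, at chr6:83317605-83317854 for Mthfd2 and chr3:98339970-98340219 for Phgdh. Matches to the letters CCAAT on either strand (CCAAT or ATTGG) are in capitals. The RefSeq start of Mthfd2 lies inside the longer GENCODE gene given above.
Mthfd2: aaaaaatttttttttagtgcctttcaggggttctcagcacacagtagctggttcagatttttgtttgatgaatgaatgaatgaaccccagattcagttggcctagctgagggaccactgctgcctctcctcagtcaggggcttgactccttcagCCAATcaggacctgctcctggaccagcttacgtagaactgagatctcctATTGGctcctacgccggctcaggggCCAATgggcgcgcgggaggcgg
Phgdh: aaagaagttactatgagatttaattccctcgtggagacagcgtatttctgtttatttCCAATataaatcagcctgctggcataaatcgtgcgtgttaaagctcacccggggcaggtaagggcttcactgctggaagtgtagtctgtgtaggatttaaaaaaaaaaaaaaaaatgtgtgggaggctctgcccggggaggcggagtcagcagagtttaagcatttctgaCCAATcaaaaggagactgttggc
Mthfd2 has 3 such matches in this stretch and Phgdh 2, the nearest at positions -22 and -23 from the start. Psph and Pycr1, which were not called, have 2 each, as does 1 start of Psat1. At least 1 match occurred in 33.85% of all such stretches. CCAAT, the letters of the box bound by the factor NF-Y, was added to the search after the sequences were seen. Binding was not tested.

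All 10 genes had an entry in the promoter table, Psat1 with 2 starts, which gave 11 windows of 250 bases before and 50 after the start. CCAAT or ATTGG occurred in 6 of the 11, those of Mthfd2, Phgdh, Psat1, Psph, Pycr1 and Shmt1, and in 37.4% of all 32851 windows in the table. TGATGNAA, the core of the elements that Atf4 binds, occurred on either strand in 1 of the 11 and in 3.97% of all windows. That match is in Pycr1, in the window chr11:120643699-120643998 (minus strand), and is shown with 11 bases on either side and the match in capitals.
Pycr1: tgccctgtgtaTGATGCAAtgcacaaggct
Neither Mthfd2 nor Phgdh held these letters in this window. CACGTG, the E-box, occurred in 1 of the 11 (Aldh18a1) and in 7.15% of all windows, and AGAACA, an arm of the palindromic androgen response element, in 1 (Psph) and in 19.0% of all windows.

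Psat1, the aminotransferase that follows Phgdh (chromosome 19, 15904678 to 15947337), stood at 59.6 and 47.5 rescaled CPM in the intact samples and at 31.5, 54.8, 32.9 and 41.4 across castrated samples 1 to 4. Castrated sample 2 lay between the intact samples and the other 3 below both, so the groups overlapped. The log2 difference was -0.44 (95% interval -1.01 to 0.14; limma adjusted p = 0.446). Psph, the phosphatase that releases serine (chromosome 5, 129765558 to 129787449), stood at 14.7 and 11.8 in intact and at 12.0, 14.3, 10.99 and 11.7 in castrated samples, with a log2 difference of -0.10 (-0.50 to 0.29). Those groups overlapped too. An antisense gene, Cct6a, covers 10.4% of its exon bases and stood at 168 to 206 rescaled CPM. The strand setting of the counting is not known here, so Psph reads cannot be told apart from Cct6a reads there. Of the serine chain, then, the entry enzyme was called and the 2 that follow were not, and the difference between Phgdh and either of them was not tested.

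Shmt2, the mitochondrial hydroxymethyltransferase (chromosome 10, 127517123 to 127522444), stood at 56.6 and 57.9 rescaled CPM in the intact samples and at 41.1, 53.2, 43.7 and 49.9 across castrated samples 1 to 4. The groups did not overlap, but the castrated samples reached close to the intact ones. The log2 difference was -0.29 (95% interval -0.60 to 0.02; limma unadjusted p = 0.0608, adjusted p = 0.341). Shmt1, its cytosolic counterpart (chromosome 11, 60788104 to 60811718), stood at 67.9 and 53.7 in intact and at 82.0, 47.4, 69.6 and 36.3 in castrated samples. Those castrated values lay on either side of both intact samples and spread more than for any other of the 10 genes, 2.26-fold from lowest to highest. The log2 difference of Shmt1 was -0.11 with an interval of -0.89 to 0.68, and it turned positive without intact sample 1 or castrated sample 4. Antisense genes cover 4.74% of the exon bases of Shmt1 and 1.03% of those of Shmt2.

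Mthfd1l, the synthetase that releases formate in mitochondria (chromosome 10, 3973118 to 4167081), stood at 18.6 and 16.2 rescaled CPM in intact and at 16.1, 18.7, 16.1 and 18.1 in castrated samples. The groups covered nearly the same range. Its log2 difference was -0.01 with an interval of -0.33 to 0.31, and its sign changed with the values as deposited, without the size factors (0.03). The interval does not reach a fall of the size seen for Mthfd2, the enzyme just before it in the pathway.

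Aldh18a1, the synthase that starts proline from glutamate (chromosome 19, 40550257 to 40588463), stood at 57.1 and 60.4 rescaled CPM in intact and at 51.7, 55.4, 50.8 and 60.6 in castrated samples, a log2 difference of -0.11 (-0.36 to 0.15). Castrated sample 4 lay above both intact samples and the other 3 below. Pycr1, the reductase that completes proline (chromosome 11, 120635712 to 120643769), was weakly expressed at 2.34 and 2.99 in intact and at 2.11, 2.05, 2.62 and 2.16 in castrated samples, a log2 difference of -0.21 (-0.71 to 0.30) with overlapping groups. Gpt2 (chromosome 8, 85492576 to 85527560) stood at 53.6 and 57.4 in intact and at 78.7, 61.1, 69.9 and 43.5 across castrated samples 1 to 4. For Gpt2, 3 castrated samples lay above both intact ones and castrated sample 4 below them, with a log2 difference of 0.16 (-0.39 to 0.70). The 3 genes had limma adjusted p of 0.697, 0.705 and 0.809.

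Levels of different genes are compared per kilobase of exon, counting every base in any annotated exon of a gene. The order of genes depends on the lengths taken. In intact samples the means per kilobase were 62.4 rescaled CPM for Phgdh, 18.4 for Shmt2, 15.7 for Shmt1, 14.4 for Aldh18a1, 12.6 for Psat1, 9.83 for Gpt2, 9.66 for Mthfd2, 3.92 for Mthfd1l, 3.05 for Psph and 0.677 for Pycr1. Of neighbours in this order, Shmt1 and Aldh18a1 overlapped between their samples, as did Gpt2 and Mthfd2, while the others did not. In castrated samples Phgdh was still the highest, at 26.02, while Mthfd2 had dropped to 2.84, level with Psph at 2.83 and below Mthfd1l at 3.89. For Mthfd2 and Mthfd1l, neighbours in the pathway, the per-kilobase levels were 9.37 and 9.96 against 3.65 and 4.19 in the intact samples, and 2.34 to 3.21 against 3.62 to 4.22 in the castrated ones. By these lengths Mthfd2 was above Mthfd1l in intact and below it in castrated samples without overlap. The longest coding transcripts of Mthfd2 and Mthfd1l have 2085 and 3687 bases, against 3487 and 4435 exon bases. By transcript length Mthfd2 stays above Mthfd1l in intact samples, but the castrated samples of the 2 genes overlap. Psph, with a transcript of 1733 bases, is then no longer level with Mthfd2.

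For pairs of enzymes that catalyse like reactions, ratios within a sample were taken after 0.5 was added to each level. Scaling between samples cancels in such a ratio, apart from the added 0.5. With 2 against 4 samples the exact permutation test cannot give a p below 0.0667, so none of these could pass 0.05. The ratio of Mthfd2 to its paralog Mthfd2l, in rescaled CPM plus 0.5, was 3.66 and 3.81 in intact samples and 0.588, 0.920, 0.743 and 1.51 across castrated samples 1 to 4. It was 4.23-fold lower in castrated samples, without overlap (exact two-sided permutation p = 0.0667, the smallest possible, and 0.2 adjusted over the 3 ratios computed). Mthfd2l itself stood at 8.67 ± 0.643 and 11.5 ± 3.04 (SD), a log2 difference of 0.35 (-0.30 to 1.01). The ratio of Shmt2 to Shmt1 was 0.834 and 1.08 in intact and 0.504, 1.12, 0.630 and 1.37 in castrated samples, with groups that overlapped (exact permutation p = 0.733).

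**Figure D3:**
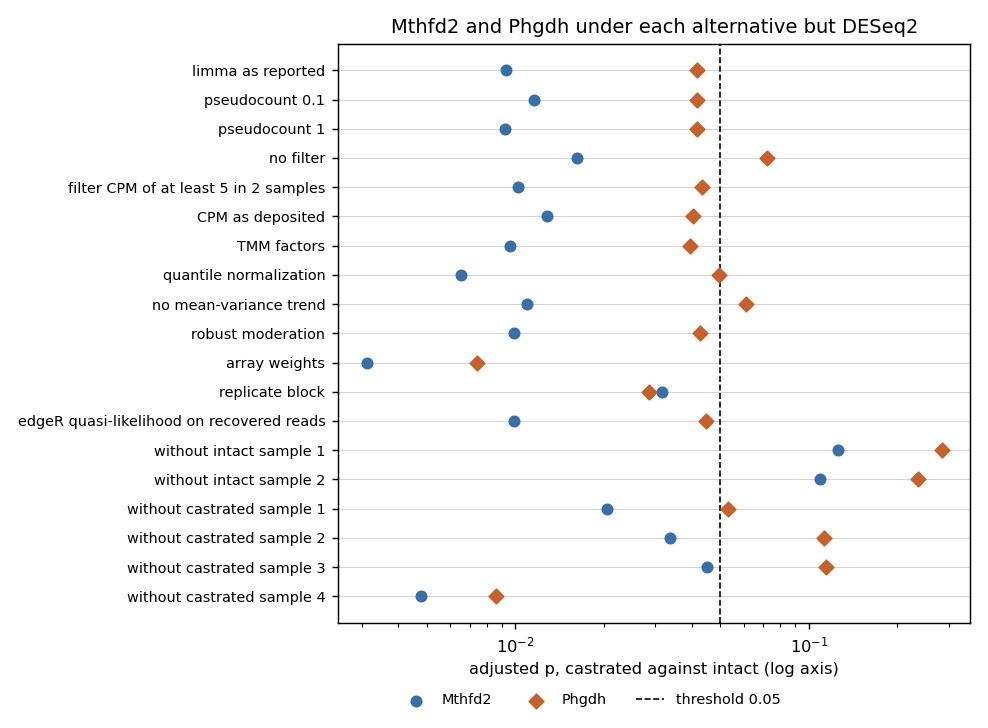
Benjamini-Hochberg adjusted p (x axis, log scale) of Mthfd2 (circles) and Phgdh (diamonds) in limma as reported and under each alternative except DESeq2, with the threshold of 0.05 dashed. Mthfd2 lies beyond the line only where an intact sample is left out (0.126 and 0.109), and Phgdh also without castrated sample 1, 2 or 3, with no filter (0.0718) and with no mean-variance trend (0.0610). DESeq2 gave 2.09e-17 and 5.43e-06.

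Within the castrated group the enzymes fell into patterns, described here after their values were seen. Phgdh, Shmt1 and Gpt2 were highest in castrated sample 1, followed by samples 3, 2 and 4. That order held in 13.9% of all tested genes and was shared by asparagine synthetase, Asns, at 62.6, 49.8, 61.0 and 23.2 rescaled CPM across castrated samples 1 to 4. For Psat1, Shmt2, Mthfd2, Mthfd1l and Aldh18a1, castrated samples 1 and 3 lay below samples 2 and 4, which was so for 23.0% of all tested genes. Medians of some gene lists had these patterns: epithelial genes the first, and basal and proliferation genes the second. Medians of smooth muscle, fibroblast, leukocyte and neutrophil genes had neither. The proliferation median deviated by -0.19 in castrated samples 1 and 3, and by 0.07 and 0.29 in samples 2 and 4. The median of the 10 epithelial genes had the order 1, 3, 2, 4, with log2 deviations from the castrated mean of 0.21 in sample 1 to -0.31 in sample 4. None of the 10 was called between castrated and intact samples, and their median log2 difference was -0.35. The median of the 14 basal epithelial genes deviated by -0.55 and -0.41 in samples 1 and 3 and by 0.14 and 0.75 in samples 2 and 4. Between castrated and intact samples 2 of these 14 were called lower, where 1.27% of all tested genes were. All 14 had a negative difference (median -0.85), where 49.9% of all tested genes did. The 14 genes summed to 4977 to 5287 rescaled CPM in intact and 1361 to 4456 in castrated samples. The keratin gene Krt5 reached 1367 and 873 rescaled CPM in castrated samples 2 and 4 but 209 and 237 in the other pair, with 787 and 910 in the intact samples. Of 8 tested neutrophil genes limma called 4 higher (0.698% of all tested genes were). edgeR called 2 in all and DESeq2 6, where they called 1.46% and 9.3% of all tested genes. At an unadjusted limma p under 0.05, 7 were higher and 1 lower, and the median log2 difference was 1.95. The summed level of the 10 neutrophil genes in the table ran against that median. It was lower in castrated samples, at 1035 to 3244 against 3260 to 3542 rescaled CPM in intact ones. Of 12 smooth muscle genes 10 had a positive difference and 2 a negative one, with a median of 0.76. Among them limma and edgeR called 0 and DESeq2 7. Their summed level was 388 to 401 rescaled CPM in intact and 442 to 716 in castrated samples. The part of these cell types in the spread or the fall of the enzymes was not tested.

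**Figure D4:**
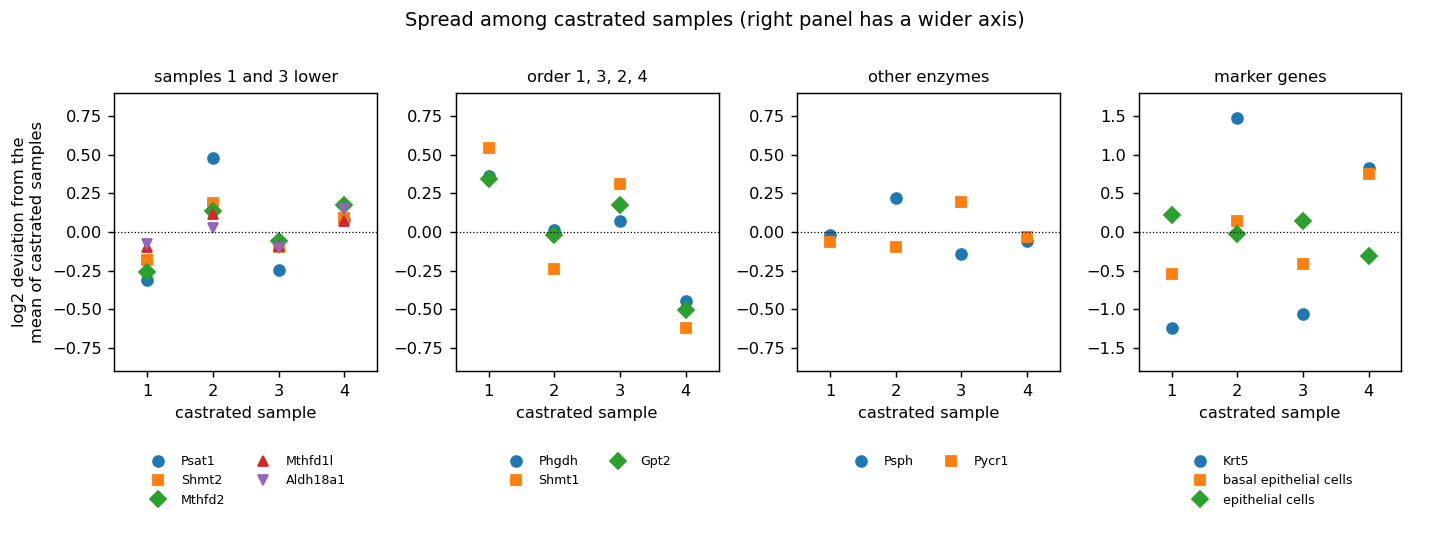
Log2 deviation from the castrated mean (y axis) for each castrated sample (x axis), for 5 enzymes lower in samples 1 and 3, for 3 enzymes in the order 1, 3, 2, 4, for the other 2 enzymes, and for Krt5 and the medians of basal and epithelial marker genes (right, wider axis). Shmt1 runs from 0.55 in sample 1 to -0.62 in sample 4, and Krt5 from -1.24 in sample 1 to 1.47 in sample 2.

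Around these enzymes lie genes that use or supply the same metabolites, taken from lists. Beside the counts that follow, limma called 1.27% of all tested genes lower and 0.698% higher. edgeR called 1.46% of them in either direction and DESeq2 9.3%. Of 10 tested genes of glycine and serine breakdown, 0 were higher and 1 lower. This was Gldc, the glycine decarboxylase of the mitochondrial glycine cleavage system (chromosome 19, 30098447 to 30175429), at 4.82 and 4.72 rescaled CPM in the intact samples and at 0.361, 0.969, 0.229 and 0.307 in castrated samples. It was low throughout, with 13 to 270 reads per sample, and its log2 difference of -2.51 (-3.32 to -1.69, limma adjusted p = 0.0243) is understated by the pseudocount: edgeR on the reads gave -3.35 (adjusted p = 0.0526, which misses the threshold). Its call was lost on omitting castrated sample 1, at an adjusted p of 0.0731, or 3, at 0.0737, and without either intact sample Gldc did not pass the filter. All castrated values were below 1, so Gldc entered the test only through the intact samples, where it was high. Its call therefore depends in part on that difference. Its partners in the cleavage system, Amt and Gcsh, had log2 differences of 0.17 and -0.07.

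Of 19 other folate and one-carbon genes tested, 0 passed the limma threshold in either direction (5 at an unadjusted p under 0.05, against 15.9% of all tested genes; edgeR called 0 and DESeq2 2). The smallest p was that of Ggh, which trims folate polyglutamates, at 11.1 and 17.8 rescaled CPM in intact and 21.1, 40.3, 31.3 and 41.8 in castrated samples (log2 difference 1.18, limma adjusted p = 0.131). The other 4, named after their values were seen, were the formyltetrahydrofolate dehydrogenase genes Aldh1l1 (1.26) and Aldh1l2 (1.03), Mthfs (0.69) and the folate polyglutamate synthase gene Fpgs (-0.48). Mthfd1, the cytosolic enzyme that takes up mitochondrial formate, stood at 58.6 ± 4.997 and 56.7 ± 4.94 (SD), a log2 difference of -0.05 (-0.32 to 0.23). Of 13 purine synthesis genes, which consume folate carbon, 0 passed in limma (3 at an unadjusted p under 0.05; edgeR called 0 and DESeq2 2), with a median of -0.08 and the smallest p for Adssl1 (1.09, adjusted p = 0.0672).

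Among 14 tested genes of proline, ornithine and glutamate, 0 were higher and 1 lower: Arg2, the mitochondrial arginase that yields ornithine (chromosome 12, 79130777 to 79156301), fell 2.39-fold. It stood at 35.5 and 33.3 rescaled CPM in intact and at 16.8, 13.6, 16.4 and 10.6 in castrated samples (log2 difference -1.26, interval -1.74 to -0.78, limma adjusted p = 0.0395). The groups did not overlap, and the call was kept without castrated sample 4 but lost on omitting any other sample (adjusted p from 0.0714 to 0.265). Genes on the other strand cover 28.1% of its exon bases. Gpt, the cytosolic counterpart of Gpt2, varied more, at 15.8 and 25.5 in intact and 8.96, 30.8, 11.9 and 26.3 in castrated samples, with castrated samples 1 and 3 lowest.

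Of 10 genes that put serine into lipids, 1 was lower and 0 higher, with a median of 0.01. Serinc3, named for serine incorporation into membrane lipids (chromosome 2, 163623272 to 163645131), stood at 2030 and 2074 rescaled CPM in intact and 1110, 1161, 1113 and 1211 in castrated samples, a fall of 1.79-fold (limma adjusted p = 0.0311). The groups were far apart against their spread, but this call too was kept without castrated sample 4 and lost on omitting any other (adjusted p from 0.0898 to 0.235). Of 9 methionine cycle and transsulfuration genes 0 passed in limma (2 at an unadjusted p under 0.05; edgeR called 0 and DESeq2 1), with the smallest p for Ahcy, which splits S-adenosylhomocysteine (-0.62, adjusted p = 0.0814).

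**Figure D5:**
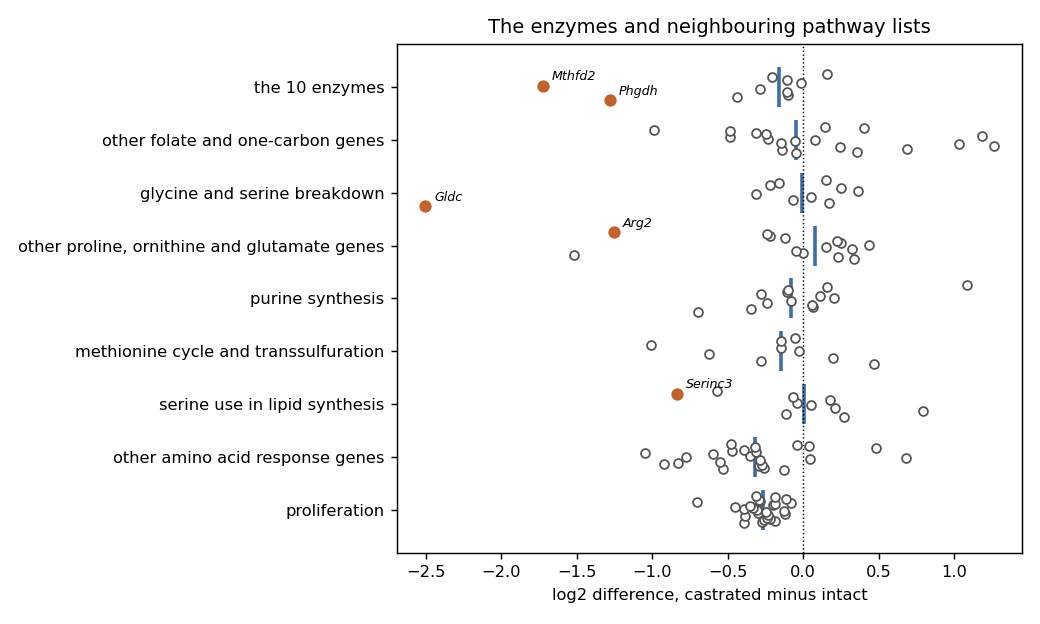
Log2 difference between castrated and intact samples (x axis) of each tested gene of the 10 enzymes and of 8 neighbouring lists; filled points passed the limma threshold and blue bars are list medians. Beside Mthfd2 and Phgdh, only Gldc, Arg2 and Serinc3 were called in these lists, all lower in castrated samples. Gldc passed the filter on low values only through the intact samples.

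The other amino acid response genes, from which the 10 enzymes were left out, held 23 tested genes with a median of -0.32. In limma 0 passed, and 12 had an unadjusted p under 0.05, 10 lower and 2 higher, where 8.06% of all tested genes were lower at that level. Of the 23, edgeR called 0 and DESeq2 6, where DESeq2 called 9.3% of all tested genes. Slc7a5, a transporter of large neutral amino acids, had the smallest p, at 75.6 and 85.9 rescaled CPM in intact and 38.6, 52.8, 42.9 and 54.8 in castrated samples (log2 difference -0.78, adjusted p = 0.0795). Atf4 itself stood at 236 and 184 in intact and at 199, 200, 197 and 170 in castrated samples. These overlapped, with a log2 difference of -0.13 (-0.44 to 0.19) at the RNA level, while Atf4 is known to be controlled largely by translation, which was not measured. Asns, a well-known target of Atf4, stood at 49.1 and 40.3 in intact samples, and its log2 difference was 0.04 (-0.91 to 1.00). Genes of proliferation, in which cells need folate carbon for nucleotides, had a negative difference in 26 of 26 and a median of -0.27. Of all tested genes, 49.9% had a negative difference. In limma 0 of the proliferation genes passed (5 at an unadjusted p under 0.05; edgeR called 0 and DESeq2 1), with the smallest p for Rrm2 (-0.70, adjusted p = 0.173). The summed level of the proliferation genes was 984 to 1116 in intact and 761 to 1059 in castrated samples, and its part in the fall of Mthfd2 was not tested.

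The genes whose profile over the 6 samples was most like that of Mthfd2, by the mean absolute difference of log2 values centred on each gene's mean over 11090 other genes, were Suco, Hoga1, Slc25a30, Tspan33 and Nfil3, at 0.079 to 0.131. All 5 fell, with log2 differences of -1.65 to -1.85 (limma adjusted p from 0.00315 to 0.0243). Suco, the closest, stood at 386 and 371 rescaled CPM in intact and at 97.5, 134, 96.4 and 145 in castrated samples, with castrated samples 1 and 3 the lowest. The genes most like Phgdh were Arg2, Lpcat4, Stk39, Cntfr and Dcxr, at 0.070 to 0.118, all lower in castrated samples, of which Lpcat4 and Cntfr did not pass (adjusted p = 0.0552 and 0.0794). Phgdh ranked at 133 among the genes like Mthfd2, and Mthfd2 at 271 among those like Phgdh. Each list was picked for its likeness from many genes over few samples, so it is a description.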

How the data were processed

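RNA-seq of 2 intact and 4 castrated mouse prostate samples was analysed. For each sample the authors deposited CPM values, scaled to 1000000 reads in genes. The submitters' processing notes name TopHat2, HTSeq, edgeR and mm10; settings, and whether counting used the strand, are not given in the sources used here. Dividing by the smallest nonzero CPM gave whole numbers for 100% of values (tolerance 1e-06), so whole reads were recovered. CPM was divided by median-of-ratios size factors. Genes with CPM of at least 1 in 2 samples were tested with limma 3.58.1 (R 4.3.3, mean-variance trend) on log2(rescaled CPM + 0.5), a scale that understates changes of low genes; P-values were two-sided and Benjamini-Hochberg adjusted over all tested genes, with a threshold of 0.05. edgeR 4.0.16 (203 genes called) and DESeq2 1.42.0 (1293) were run on the recovered reads, against 274 in limma. Steps were tested on simulated counts. Replicates differed by more than sampling noise (lowest chi-square over degrees of freedom 63.05).

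The members and lists were chosen with earlier results of these data known. All members are named; from each list, up to 4 called genes, or the gene of smallest p, and 5 pathway partners; other items are not reported here. Positions are from GENCODE vM21 (GRCm38, the assembly of mm10), and promoters from RefSeq GRCm38.p6. As alternatives the pseudocount, filter, scaling and variance moderation were changed, array weights or a replicate block were used, and each sample was left out.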

Additional observations from a re-analysis of the deposited data

Results flagged for a closer look

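In the 4 castrated samples, 2 of the 32 enzyme, partner and similar genes examined had 1 sample far from the rest, by a gap that took up most of the group's range (Dixon's test at 95%). Chance flags about 1 in 20 such groups. Atf4 was at 170 rescaled CPM in castrated sample 4 and at 197 to 200 in the others. Hoga1 was at 7.91 in castrated sample 4 and at 5.98 to 6.14 in the others. None of the 10 enzymes was among them.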

How the results depend on the processing

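With all samples, 274 genes were called, but 170 with no filter, 954 with array weights, 417 with a replicate block and 1293 in DESeq2; leaving out 1 sample gave 1 (without intact sample 2) to 1052 (without castrated sample 4). Of the enzymes, 2 were called, 1 with no filter (Phgdh adjusted p = 0.0718) or no mean-variance trend (0.0610), and 0 to 2 with 1 sample left out. The replicate block kept both calls (limma adjusted p = 0.0316 for Mthfd2 and 0.0285 for Phgdh) and ended that of Gldc (0.0735). The block gives each sample number its own level, so its differences rest on the 2 pairs of same-numbered samples. Castrated samples whose number no intact sample shares add nothing to these differences. The labels do not say that equal numbers mark shared animals or days, and deviations of same-numbered samples correlated at 0.0754 and 0.226, over 2 pairs. Differently numbered samples correlated at -0.226 to 0.106, so the smaller of these values does not stand out. With 2 intact samples the deviations of one mirror those of the other, so these correlations cannot decide on a pairing. With the filter at CPM of at least 5, Pycr1 was not tested. The cause of lost calls was not tested, and 2 intact samples limit every comparison.

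Log2 differences that changed sign were small and uncalled. Shmt1 gave 0.0466 and Mthfd1 0.0173 with the replicate block, Mthfd1l 0.0344 and Mthfd1 0.000239 without size factors, and Mthfd1l 0.00713 with array weights. With 1 sample left out, values ranged from -0.26 to 0.0465 for Psph, -0.29 to 0.0969 for Shmt1, -0.11 to 0.0824 for Mthfd1l, -0.14 to 0.0363 for Mthfd1, -0.31 to 0.0481 for Atf4, -0.11 to 0.37 for Asns and -0.56 to 0.12 for Gpt. The log2 ratio of Shmt2 to Shmt1 ranged from -0.42 to 0.0611. That of Mthfd2 to Mthfd2l (-2.34 to -1.88) kept its direction.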
